A study of Danio rerio with 4 samples.

Results

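Transcripts of glycolysis and oxidative phosphorylation were followed in zebrafish (Danio rerio) embryos at 3 days after fertilization, in cells sorted for GFP. The members are all probe sets with a single gene symbol that starts with the name of a respiratory complex subunit or assembly factor, a glycolytic enzyme or a lactate dehydrogenase. That rule took 142 of the 15617 probe sets on the array, and these stand for 122 of the 8793 genes named there. It used names only, and no measured value entered it.

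Both groups came from the AB strain carrying Tg(cmyb:EGFP), a transgene in which the cmyb promoter drives EGFP. Controls were injected with a control morpholino, an antisense oligomer, and gave 2 arrays. Embryos injected with a miR-34b morpholino, which targets that microRNA, gave the other 2 arrays and are called morphants. For each array 20000 GFP-positive cells from dissected kidney tissue were sorted, so every value is a mean over a pool of cells. The labels call the cells kidney multiciliated cells. Of 13 multiciliated cell markers with a probe set, 12 lay above the background controls on all 4 arrays; foxj1a, gmnc, mcidas and ccno have no named probe set. Markers of other cells were present too: 34 of 36 skeletal muscle, 13 of 14 myeloid and leukocyte and 15 of 16 liver and pancreas genes lay above background on all arrays. Background was a low mark, 3.71 to 4.93, where only the lowest 25% of probe sets had a mean under 5.10. The share of all probe sets above it was not counted. On the control arrays the mean signal was 8.40 and 8.12 over the multiciliated markers. It was 10.64 and 10.03 over the muscle markers, and 11.48 and 11.30 over the myeloid and leukocyte markers. The lists hold different probe sets, so these means do not give the share of each cell type. The poly-A spike-in controls had mean log2 signals of 9.93 and 9.92 in controls against 9.53 and 8.73 in morphants. Both morphant arrays thus lay below both control arrays in them, and morphant replicate 2 lay farthest below. In such bulk samples, fewer cells of a type and less RNA per cell cannot be told apart.

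Glycolysis splits glucose into pyruvate in the cytosol, and lactate dehydrogenase turns pyruvate into lactate. Oxidative phosphorylation takes place in the inner mitochondrial membrane, where complexes I to IV pass electrons to oxygen. Complexes I, III and IV also pump protons, and complex V, the ATP synthase, uses the proton gradient. Many glycolytic steps have several genes, some used in most tissues and others mainly in muscle, liver, brain or germ cells. Motile cilia and sperm tails beat by dynein motors that spend ATP, and in mammals the sperm tail holds glycolytic enzymes of its own.

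Of the 142 members, 3 are control probe sets for gapdhs that check RNA quality and 7 fell under the filter on dim probe sets, which left 132 probe sets of 120 genes for the test. Values are log2 signals, and each difference is morphant minus control. A difference passed at an adjusted p under 0.05 (limma, Benjamini-Hochberg over all 11626 probe sets tested). For a single value, the smallest two-sided p that an exact permutation of 2 arrays against 2 allows is 0.333.

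One member passed, the enolase gene eno4, which rose 5.39-fold in the morphants. Among members that is 0.758%, where 2.49% of all probe sets tested passed as higher. None passed as lower, where 0.12% of all probe sets did. At an unadjusted p under 0.05 there were 2 higher members, eno4 and pklr, where 11.6% of all probe sets were higher, and 9 lower members (6.82%), where 6.1% of all probe sets were lower. Probe sets whose groups did not overlap were 53 lower (40.2%) and 12 higher (9.09%), against 24.7% and 25.1% of all probe sets tested. The median difference over the 120 genes was −0.088, beside −0.017 over all probe sets. The 74 complex subunits had differences between −0.52 and 0.40 (SD 0.14), and the SD over all probe sets tested was 0.51. Spread was smaller at high signal: among probe sets with a mean above 12, the SD was 0.10 over 37 subunit genes and 0.27 over all 480. The 27 glycolytic genes ran from −1.39 to 2.43 (SD 0.73), and without eno4 their SD was 0.52. These SDs and the 0.51 are not matched for signal. Array means were 10.61 to 10.85 over the 27, against 8.30 to 8.37 over all probe sets. The median of the 27 was −0.23, with 7 above 0 and 20 below. Of them 15 were separate on the lower side (55.6%) and 5 on the higher (18.5%), against 24.7% and 25.1% of all probe sets. At an unadjusted p under 0.05 (limma), 6 were lower (22.2%) and 2 higher (7.41%), where 6.1% and 11.6% of all probe sets were.

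**Figure D1:**
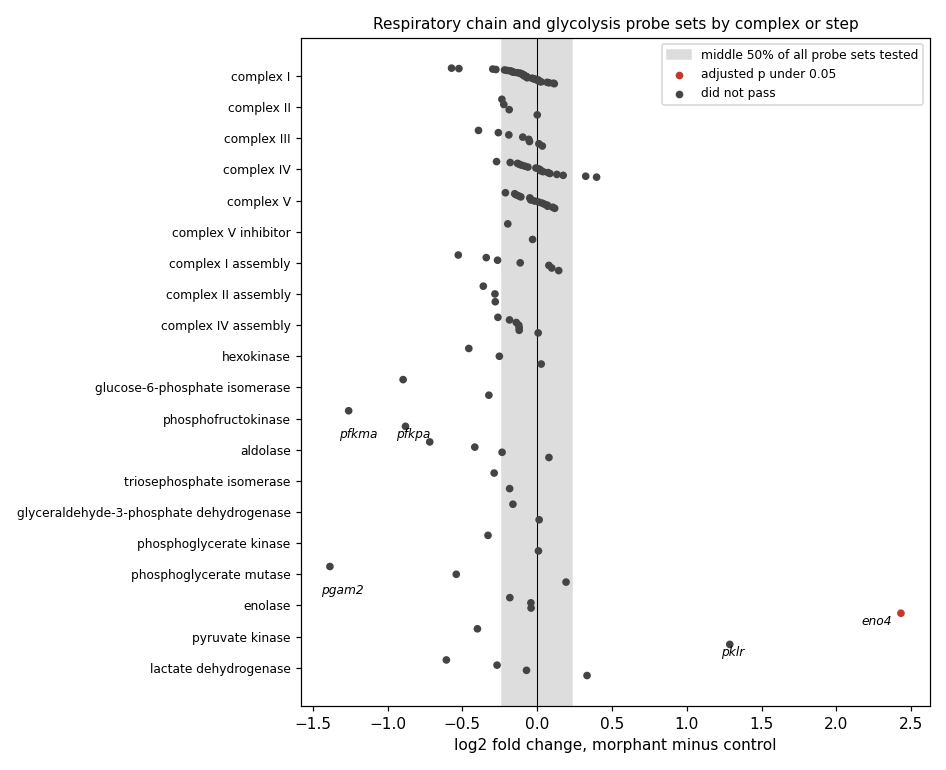
Log2 difference between morphants and controls (x axis) for the tested probe sets that belong to a complex, its assembly or a glycolytic step (y axis). Points are probe sets and the grey band spans the middle 50% of all probe sets tested, −0.23 to 0.24; the chain complexes sit close to 0, eno4 stands at 2.43, and pgam2 and pfkma lie farthest to the left.

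Enolase, which makes phosphoenolpyruvate, has 4 genes among the members, of which 1 rose. The signal of eno4, known in mouse as an enolase of the sperm tail, was 6.53 and 6.20 (log2) in controls and 8.88 and 8.71 in morphants. Its groups lay far apart, and all 4 values were above the background controls, whose highest signal was 3.71 to 4.93. The difference was 2.43 ± 0.20 (SE, n = 2 arrays a group; 95% interval 1.94 to 2.93; limma adjusted p = 0.0180). The call was lost without either morphant array (adjusted p = 0.0978 without replicate 1 and 0.0937 without replicate 2) and when dim probe sets were kept (adjusted p = 0.113), with differences of 2.35, 2.51 and 2.43; in these settings limma called 0 of all probe sets; over the 12 alternative settings the adjusted p ran from 8.11e-04 to 0.113. The other enolases gave differences near 0. eno1a, the form of most tissues, had 13.08 and 12.70 in controls and 12.65 and 12.76 in morphants (−0.18 ± 0.20). eno3, the muscle form in mammals, had 13.87 and 13.59 against 13.72 and 13.65 (−0.041 ± 0.18), and eno1b had −0.042 ± 0.16. Their groups overlapped, except those of eno1b, which were separate by a small margin. The 95% intervals of all 3 lay between −0.68 and 0.42, inside a 2-fold change either way.

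**Figure D2:**
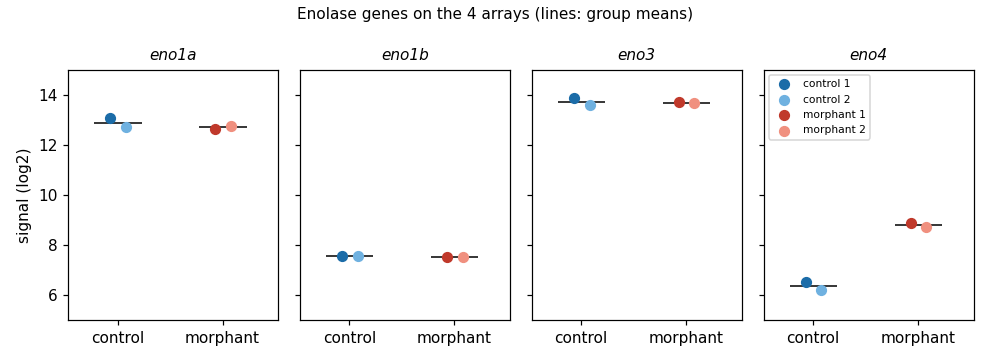
Log2 signal (y axis) of the 4 enolase genes on the 2 control and 2 morphant arrays; points are arrays and lines are group means. For eno4 the control arrays lie at 6.53 and 6.20 and the morphant arrays at 8.88 and 8.71, while the differences of eno1a, eno1b and eno3 lie between −0.18 and −0.041.

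Most multiciliated cell markers lay on the same side as eno4. Set against the control mean, the mean of the 13 markers with a probe set lay at 0.14 and −0.14 in controls, and at 1.45 and 1.6 in morphants. Like the other marker lists, this one was chosen with earlier results of these data known. Of its 12 genes tested, 9 passed as higher, where 2.49% of all probe sets did, and 0 passed as lower (limma). The median difference was 1.66, with 10 above 0 and 2 below. Those below were tekt3, with separate groups (−0.98 ± 0.21, limma adjusted p = 0.0928), and dnali1 (−0.36 ± 0.27). The part of multiciliated cell RNA in the eno4 difference was not tested. Other members named after germ cell forms of mammals did not pass; these were picked after their values were seen. gapdhs had 13.15 and 13.00 against 12.75 and 13.08 (−0.16 ± 0.19), and cox6b2, a testis form of a complex IV subunit in mammals, had 12.58 and 12.54 against 12.45 and 12.41 (−0.13 ± 0.16).

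The first steps gave no call, and most of their values were below 0. Hexokinase phosphorylates glucose: hk2 gave −0.25 ± 0.21 and hk1 0.027 ± 0.18, with a second hk1 probe set at −0.46 ± 0.24. The remaining hk1 probe set lay at or below the background controls on all arrays and was not tested. Glucose-6-phosphate isomerase follows, with gpia at −0.32 ± 0.19 and gpib at −0.90 ± 0.43. For gpib, control replicate 1 stood at 9.56 and control replicate 2 at 8.33, close to the morphant values of 8.24 and 7.86.

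Phosphofructokinase, the committing step of the pathway, had the lowest median of the steps, −1.07 over 2 genes. pfkma, the muscle form in mammals, had 7.57 and 7.78 in controls and 6.73 and 6.09 in morphants. Both morphant arrays were below both controls, and the difference was −1.26 ± 0.26 (95% interval −1.92 to −0.60; limma adjusted p = 0.0856). pfkpa, the platelet form in mammals, had 11.57 and 11.39 against 10.47 and 10.73, also separate, with −0.88 ± 0.18 (−1.35 to −0.41; limma adjusted p = 0.0898). Neither passed in the main test. Both passed with a pseudocount of 64 (pfkma −0.84, adjusted p = 0.0330; pfkpa −0.85, adjusted p = 0.0221) and with a mean-variance trend (adjusted p = 0.0473 and 0.0102), and pfkpa also with the dimmer 50% of probe sets removed (adjusted p = 0.0356). The liver form pfklb has 3 probe sets, all dim and untested, of which 2 were at or below background on all 4 arrays and the other on 3.

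Aldolase and the steps in the middle gave no call. aldoab, of the aldolase A type found in mammalian muscle, had 13.12 and 12.60 in controls and 12.36 and 11.92 in morphants (−0.72 ± 0.26, 95% interval −1.39 to −0.050; limma adjusted p = 0.251). Its paralog aldoaa had 12.01 and 12.06 against 11.74 and 11.87 (−0.23 ± 0.16). Of the aldolase C type, which is a brain form in mammals, aldocb had 0.078 ± 0.16 in one probe set and −0.42 ± 0.18 in the other, and aldoca was too dim to test, with signals of 3.51 to 4.56. Triosephosphate isomerase (tpi1a −0.29 ± 0.16, tpi1b −0.18 ± 0.16) and phosphoglycerate kinase (pgk1 −0.33 ± 0.17, second probe set 0.0082 ± 0.22) gave no call. Glyceraldehyde-3-phosphate dehydrogenase, a common reference transcript, had a difference near 0: gapdh had 13.35 and 13.29 in controls and 13.39 and 13.28 in morphants (0.013 ± 0.16, 95% interval −0.40 to 0.43). The array controls for gapdhs, which probe the 3′ and 5′ ends, had 3′ minus 5′ signals of 1.02 and 0.88 in controls and of 0.36 and 0.94 in morphants.

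Phosphoglycerate mutase had values on both sides of 0. pgam2, the muscle form in mammals, had 12.02 and 11.47 in controls and 10.48 and 10.23 in morphants. The groups were separate, and the difference was −1.39 ± 0.24 (95% interval −2.01 to −0.77; limma adjusted p = 0.0618), the lowest of all members. pgam1a had 12.27 and 11.82 against 11.53 and 11.47 (−0.54 ± 0.21), and pgam1b had 10.91 and 10.91 against 11.16 and 11.05 (0.19 ± 0.16). pgam2 passed with a pseudocount of 16 (−1.37, adjusted p = 0.0344) or 64 (−1.34, adjusted p = 0.00972), with a mean-variance trend (adjusted p = 0.00465) and with the lowest 50% left out (adjusted p = 0.0206). Leaving out single arrays moved it between −1.66 and −1.11 with no call.

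Pyruvate kinase, the last step, had members on opposite sides. pklr, the form of liver and red cells in mammals, had 7.56 and 8.0 in controls and 9.44 and 8.69 in morphants. Both morphant arrays were higher, and the difference was 1.29 ± 0.31 (95% interval 0.50 to 2.07; limma adjusted p = 0.121). It passed with a pseudocount of 64 (1.08, adjusted p = 0.0427) and with a mean-variance trend (adjusted p = 0.0368). pkma had 12.85 and 12.67 against 12.28 and 12.44 (−0.40 ± 0.17, limma adjusted p = 0.327). Set against its control mean, the mean of 10 erythroid markers lay at 0.51 and −0.51 in controls, and at −0.14 and −0.093 in morphants. That of 16 liver and pancreas markers lay at −0.44 and 0.44 in controls, and at 0.091 and −0.11 in morphants. This mean covers genes far apart: the 15 tested ran from −2.78 to 2.46, with 9 above 0 and 6 below. Of them 1 passed as higher (cpb1, 1.92 ± 0.16) and 0 as lower (limma), where 2.49% and 0.12% of all probe sets tested did. The part of either set of markers in the pklr value was not tested.

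Lactate dehydrogenase gave no call. ldha, the form prominent in skeletal muscle, had 10.32 and 10.46 in controls and 9.64 and 9.93 in morphants (−0.61 ± 0.19, limma adjusted p = 0.191). The B-type genes, prominent in heart in mammals, lay nearer 0, with ldhba at −0.072 ± 0.22 and ldhbb at 0.33 ± 0.18. ldhd, which in mammals acts on D-lactate in mitochondria, had −0.27 ± 0.22.

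**Figure D3:**
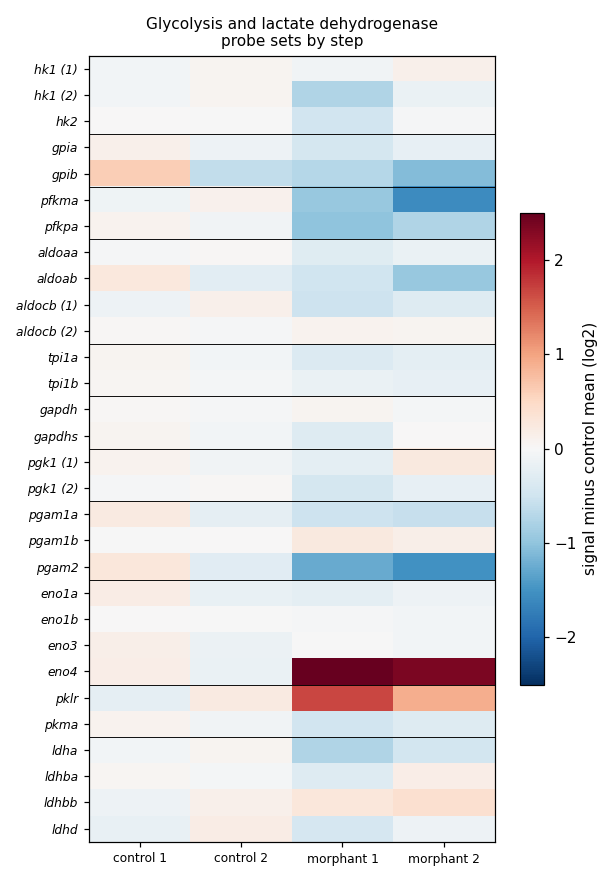
Signal minus the mean of the control arrays (log2, colour) for the 30 tested glycolysis and lactate dehydrogenase probe sets (rows, in order of the steps; numbers in brackets mark probe sets of one gene) on each array (columns). eno4 and pklr have the highest differences (2.43 and 1.29), and pgam2 and pfkma the lowest (−1.39 and −1.26).

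Set out by isozyme, the 6 genes that are muscle forms in mammals (pgam2, pfkma, aldoab, ldha, aldoaa and eno3) were all below 0, with a median of −0.66. Of these, 5 had separate groups, 4 had an unadjusted p under 0.05 and 0 passed (limma); 24.7% of all probe sets tested were separate on the lower side and 6.1% were lower at that p. The classes follow gene names and are loose. In mammals pfkpa is the platelet form and the B-type lactate dehydrogenases are prominent in heart, yet they count here as general forms. The 11 tested genes counted as general forms include 7 of glycolysis (pgam1a, pgam1b, eno1a, eno1b, pfkpa, ldhba and ldhbb). The others are cox6a1, cox7a2a, cox8a and cox7a2l, the last also counted with the assembly factors, while all 6 muscle forms are glycolytic. Over the 11 the median was −0.042, with 5 above 0 and 6 below. Over the 7 of glycolysis it was −0.072, with 2 above 0 and 5 below. Of the 11, 4 had separate groups on the lower side and 4 on the higher, 2 (pfkpa and pgam1a) were lower at an unadjusted p under 0.05, and 0 passed. As a ratio within each array, the morphant minus control difference (log2) was −1.58 for pgam2 over pgam1b and −0.84 for pgam2 over pgam1a. It was −0.94 for ldha over ldhbb, −0.54 for ldha over ldhba and −0.80 for aldoab over aldocb, all with separate groups. With the other aldocb probe set, tried after the data were seen, the last value was −0.30 and the groups overlapped. pfkma over pfkpa gave −0.38 with overlapping groups, and eno3 over eno1a 0.14 with separate groups. Of 9 such ratios, which include eno4 over eno1a (2.61) and pklr over pkma (1.69), the 8 with separate groups each had an exact two-sided permutation p of 0.333, the smallest possible, and 0.375 after adjustment over the 9. The eno4 and pklr ratios were chosen after the values were seen. Some of the 9 share a gene, so they are not independent. Among single probe sets tested, 24.7% were separate on the lower side and 25.1% on the higher. No such share was counted for ratios.

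Markers of skeletal muscle were on the same side as the muscle isozymes. Of 34 muscle genes tested, none of them a member, all 34 had values below 0 (1 probe set per gene), and the median was −0.73. At an unadjusted p under 0.05, 16 were lower, where 6.1% of all probe sets tested were, and 0 passed (limma). Set against its control mean, the mean of the 36 with a probe set lay at 0.31 and −0.31 in controls, and at −0.54 and −1.02 in morphants. The muscle regulators myf5 and myf6 lay at or below background on all arrays. The 5 heart markers gave 0.72 and −0.72 and then −0.32 and −1.89. The muscle mean was highest on control replicate 1, then control replicate 2, and lowest on morphant replicate 2. That order of arrays was shared by 21 of the 34 muscle genes tested (61.8%). Among the isozymes it was shared by 2 of the 6 muscle forms (pgam2 and aldoab) and by 2 of the 7 general forms of glycolysis (pgam1a and eno1b). It held for 14 of the 132 members tested (10.6%) and for 6.77% of all probe sets. The part of muscle RNA in these values was not tested.

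**Figure D4:**
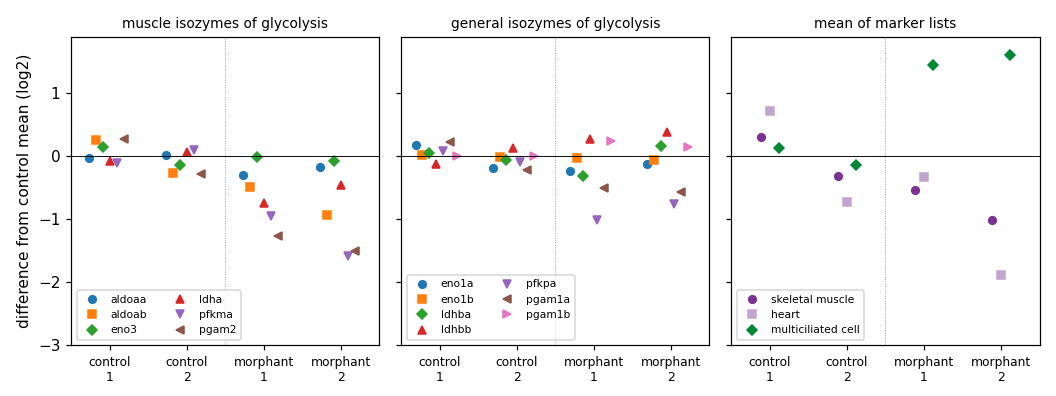
Difference from the control mean (log2, y axis) on each array (x axis) for the glycolytic genes that are muscle forms in mammals (left), for general forms (middle) and for the mean of 3 marker lists (right). The muscle forms have a median difference of −0.66 and the general forms in glycolysis one of −0.072, while on the morphant arrays the skeletal muscle mean lies at −0.54 and −1.02 and the multiciliated mean at 1.45 and 1.6.

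Differences in the respiratory chain were small. Of 74 subunit genes, 0 passed in either direction, where 2.49% of all probe sets tested passed as higher and 0.12% as lower. At an unadjusted p under 0.05 (limma), 1 was lower and 0 were higher, where 6.1% and 11.6% of all probe sets were. The median difference was −0.065, with 26 above 0 and 48 below. For 73 of the 74, the 95% interval of the difference lay inside a 2-fold change either way. The exception was cox4i1l, a complex IV subunit gene, with signals of 12.53 and 10.57 in controls against 12.20 and 11.69 in morphants, so that its control arrays differed more than its groups did. Among the subunit genes 25 (33.8%) had separate groups on the lower side and 6 (8.11%) on the higher side, against 24.7% and 25.1% of all probe sets tested. The median stayed below 0 under each scaling, but its place against all probe sets turned with one of them. With quantile normalization it was −0.031 beside −0.048 over all probe sets, and with median centring −0.14 beside −0.090. Separate groups on the lower side stayed more frequent than over all probe sets, at 32.4% beside 28.4% with quantile normalization and 45.9% beside 31.9% with median centring.

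Complex I, which takes electrons from NADH, had 31 genes with a median of −0.087. Of them 14 were separate on the lower side and 2 on the higher, where 24.7% and 25.1% of all probe sets tested were. ndufc1, an accessory subunit, had 11.16 and 11.00 in controls and 10.52 and 10.59 in morphants, with no overlap (−0.52 ± 0.17, limma adjusted p = 0.203). ndufs1, the largest core subunit, had 10.88 and 10.96 against 10.62 and 10.63 (−0.30 ± 0.16), ndufa11 −0.28 ± 0.16 and ndufa2 −0.22 ± 0.16, none of which passed. ndufc2, the partner of ndufc1, had 13.02 and 12.92 against 12.94 and 13.05 (0.027 ± 0.16). Probe sets of one gene mostly lay close together: ndufv2 gave −0.10 and −0.035, and ndufb6 0.0081 and −0.070. For ndufab1a, an acyl carrier protein, 2 probe sets gave −0.067 and 0.0087 and the third −0.57 (limma adjusted p = 0.214), so its value depends on the probe set.

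Complex II, which links the citric acid cycle to the chain, had 4 genes with a median of −0.21. sdhb, the iron-sulfur subunit, had 11.85 and 11.73 in controls and 11.58 and 11.53 in morphants (−0.24 ± 0.16). The flavoprotein subunit sdha had −0.19 ± 0.17, and the membrane subunits had −0.22 ± 0.29 for sdhdb and 0.00026 ± 0.16 for sdhc. sdha and sdhb had separate groups by margins smaller than their standard errors.

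Complex III passes electrons to cytochrome c, and its 7 genes had a median of −0.056. uqcrh, the hinge subunit, had 11.84 and 11.81 against 11.19 and 11.68 (−0.39 ± 0.22), with morphant replicate 1 lowest. uqcrb gave −0.26 ± 0.20, uqcrc2b −0.097 ± 0.17 and uqcrq −0.052 ± 0.16. uqcrc2a had 0.034 ± 0.18, and −0.19 ± 0.28 in a dimmer probe set.

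Complex IV reduces oxygen, and its 16 genes centred on 0, with a median of 0.00077 and 8 genes on either side. The mitochondrially encoded COX1 has 3 probe sets near the top of the array's range, where the highest signal was 14.99 to 15.31. Their signals were 14.92 and 14.58, 14.49 and 14.16, and 13.85 and 13.94 in controls. In morphants they were 14.96 and 14.80, 14.44 and 14.26, and 14.27 and 14.17. The differences were 0.13 ± 0.20, 0.023 ± 0.20 and 0.32 ± 0.16, none past the threshold. Among the nuclear subunits, cox6a1, the general form of subunit VIa, had 11.93 and 11.99 against 12.09 and 12.17 (0.17 ± 0.16), and cox6b1 −0.18 ± 0.22. ndufa4b, of a family first counted to complex I and now to complex IV, had −0.27 ± 0.25.

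Complex V, the ATP synthase, had 16 genes with a median of −0.030, from −0.21 to 0.12. atp5mc3b, a gene for the proton-carrying ring, had 13.99 and 13.85 against 13.81 and 13.93 (−0.046 ± 0.17). atp5f1d, the delta subunit of the central stalk, had 12.05 and 12.07 against 11.94 and 11.76 (−0.21 ± 0.17), with separate groups. atp5mea (−0.14 ± 0.17), atp5f1c of the central stalk (−0.15 ± 0.19) and atp5md (−0.12 ± 0.16) were similar, and atp5l had 0.033 ± 0.16. The inhibitors of the synthase, atp5if1a and atp5if1b, had −0.031 ± 0.16 and −0.20 ± 0.17.

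The factors that assemble the complexes gave no call either, with a median of −0.12 over 15 genes, 4 above 0 and 11 below. At an unadjusted p under 0.05 (limma), 1 was lower, where 6.1% of all probe sets tested were. ndufaf8, a complex I assembly factor, had 8.90 and 8.95 in controls and 8.43 and 8.37 in morphants (−0.53 ± 0.16, limma adjusted p = 0.187). ndufaf1 had −0.34 ± 0.17 and −0.27 ± 0.19 in its 2 probe sets. For complex II, sdhaf4 had −0.36 ± 0.18 and sdhaf2 −0.28 ± 0.16, and all 3 of its factors had separate groups on the lower side. Over the 15 assembly factors, 7 were separate on that side and 0 on the higher, against 24.7% and 25.1% of all probe sets tested. The copper chaperone cox17 had −0.18 ± 0.16, and cox10, a heme synthesis enzyme for complex IV, −0.12 ± 0.18 and −0.14 ± 0.40. The rule also took genes of neither pathway by their names, the mitochondrial phosphatase pgam5 (0.039 ± 0.18) and the cell cycle kinase pkmyt1 (−0.051 ± 0.25).

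Neighbouring genes of energy metabolism were read from 4 further lists. The citric acid cycle and pyruvate list had a median of −0.074. In it 1 of 26 genes rose and 0 fell, where 2.49% and 0.12% of all probe sets tested did. The gene that rose was ogdhl, a relative of the first subunit of 2-oxoglutarate dehydrogenase. It had 6.36 and 6.45 in controls and 7.68 and 7.58 in morphants. Its groups were separate, and it rose by 1.23 ± 0.16 (2.34-fold, limma adjusted p = 0.0313). Its call was lost without any one of the 4 arrays, with differences of 1.18 to 1.27. It was also lost without the filter (limma adjusted p = 0.140), where limma called 0 of all probe sets, and with the replicate number as a block (limma adjusted p = 0.0583). ogdha, which encodes that subunit itself, had 8.0 and 7.63 against 7.36 and 6.88 (−0.70 ± 0.24, limma adjusted p = 0.232), and the malate dehydrogenase gene mdh1ab −0.68 ± 0.23. The ogdha paralog ogdhb, named after its values were seen, had 7.20 and 7.30 against 7.62 and 7.85 (0.48 ± 0.18, limma adjusted p = 0.246).

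The list of glucose supply and glycolytic regulation had a median of −0.14. In it 1 of 18 genes rose and 0 fell, where 2.49% and 0.12% of all probe sets tested did. The facilitative transporter gene slc2a10 had 8.57 and 8.30 in controls and 9.87 and 9.95 in morphants, separate by more than 1 log2 unit, and rose by 1.48 ± 0.18 (2.78-fold, limma adjusted p = 0.0263). That call too was lost without any one array, with differences of 1.34 to 1.61. It was also lost without the filter (limma adjusted p = 0.137), where limma called 0 of all probe sets. pygmb, a glycogen phosphorylase named for the muscle form, had 9.45 and 9.17 against 10.16 and 10.22 (0.88 ± 0.18, limma adjusted p = 0.0856), and 0.99 ± 0.17 in a second probe set (limma adjusted p = 0.0577). The first passed in 3 alternative settings (adjusted p = 0.0165 to 0.0336) and the second in 4 (adjusted p = 0.0156 to 0.0376). Both pygmb values lay above 0, while all 34 muscle markers, read from 1 probe set per gene, lay below. A further bright probe set of the muscle marker actc1b lay at 0.082. The part of muscle RNA in the pygmb values was not tested. pfkfb3, whose enzyme makes the activator of phosphofructokinase, had 9.02 and 9.04 against 8.42 and 8.48 (−0.58 ± 0.16, limma adjusted p = 0.158), and −0.81 ± 0.18 in a second probe set.

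Mitochondrial partners, such as carriers, porins and coenzyme Q enzymes, had 0 of 23 past the threshold (limma) and a median of −0.090. At an unadjusted p under 0.05 (limma), 1 was lower, where 6.1% of all probe sets tested were. slc25a4, an adenine nucleotide translocator prominent in mammalian muscle and heart, had 10.80 and 10.49 in controls and 10.03 and 9.23 in morphants (−1.01 ± 0.31, limma adjusted p = 0.189). Its arrays stood in the order of the muscle marker mean, as did those of 6.77% of all probe sets tested. The part of muscle RNA in its value was not tested. bcs1l, a complex III assembly factor, had −0.33 ± 0.19, and nrf1, a regulator of mitochondrial genes, −0.32 ± 0.19. Of 6 creatine kinase genes, 0 passed (limma) and the median was −0.54. One gene, or 1 of the 6, was lower at an unadjusted p under 0.05 (limma), where 6.1% of all probe sets tested were. The muscle gene ckmb had 13.39 and 12.78 against 12.55 and 12.13 (−0.75 ± 0.28) and the mitochondrial ckmt2a −0.71 ± 0.30, while ckba, of the brain type, had 10.83 and 10.66 against 11.06 and 11.52 (0.55 ± 0.22). Over the 12 alternative settings this ckba probe set ran from 0.32 to 0.78. A second ckba probe set was lower, from 0.075 to 0.45, and passed in none of them. Of 10 neural markers tested, 10 were above 0, 0 passed (limma) and the median was 0.67. Groups were separate on the higher side for 7 of them, where 25.1% of all probe sets tested were. At an unadjusted p under 0.05, 5 were higher (limma), where 11.6% of all probe sets were. Set against its control mean, the mean of the 11 with a probe set lay at 0.15 and −0.15 in controls, and at 0.68 and 0.68 in morphants. Their part in the ckba values was not tested.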

How the data were processed

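RNA from sorted cells was hybridised to Affymetrix zebrafish arrays, 1 per sample. The authors deposited a log2 value for every probe set. MAS5 was used, per the submitters' processing notes, which give no version, and the trimmed mean signal was 500.1 on each array. limma 3.58.1 (R 4.3.3) compared the groups, without further covariates, after the 115 control probe sets and the lowest 25% of the others by mean were left out. No pseudocount was added. One probe set per gene, the one with the highest mean, entered group counts and medians. Background is the highest of 17 controls for artificial tag sequences on each array. All 142 members matched a RefSeq gene number and 0 symbols changed; 2 probe sets with several symbols were left out. The fit was also run on arrays simulated with independent noise and known changes. That checks the code only and cannot speak to differences in cell mixture between these samples. Members, lists and tests were chosen with earlier results of these data known. Genes named are those past the threshold, all glycolytic members, and in each complex and in the assembly factors the 4 with the largest statistics, the one with the highest mean signal and those with several probe sets; in each further list, those past the threshold and the 3 with the largest statistics. Replicates are independent biological sets, per the labels, which do not say whether their numbers pair arrays across groups. Alternatives covered the pseudocount, filter, scaling, variance trend, replicate block and each array left out. Paralogs may share probes, and signals near the top of the range may understate differences; neither was tested. No sequences are shown.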

Additional observations from a re-analysis of the deposited data

How the results depend on the processing

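Across the settings the number of members called higher was 2 with a pseudocount of 64 and with a mean-variance trend (eno4 and pklr) and 0 without the filter (limma; 3 at an unadjusted p under 0.05). It ranged from 0 to 1 when single arrays were left out, and was 0 without either morphant array (2 at an unadjusted p under 0.05 each). The number called lower was 1 with a pseudocount of 16 (pgam2), 2 with the lowest 50% left out (pgam2 and pfkpa), and 3 with a pseudocount of 64 and with a mean-variance trend (pgam2, pfkma and pfkpa). Over all probe sets limma called 290 higher and 14 lower, and from 0 to 495 higher and 0 to 103 lower across the alternatives. Median centring moved the medians to −0.14 (subunits), −0.31 (glycolysis) and −0.12 (general forms). Without single arrays the glycolysis median ranged from −0.33 to −0.13 and that of the general forms from −0.063 to 0.083. With the replicate number as a block, eno4 passed (adjusted p = 0.0400) and no member call changed; arrays of one number did not deviate together (r = 0.021 over probe sets). Of 1095 values of single genes under alternatives, 1010 stayed on their side with their sign, 14 lost a call, 18 gained one and 53 uncalled values turned sign, all within 0.27 of 0 in the main test. With the lowest 50% left out, pfkma, ogdhl, ckmt2a and pkmyt1 had no value. The same held for 1 of the probe sets each of cox10, ndufb6, pfkfb3, pgk1 and uqcrc2a. Precision is limited by 2 arrays a group, with a median SE of 0.170 over the members tested.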
